A study of Mus musculus with 8 samples.

Results

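LIF and interleukin 6 (IL-6) signalling was followed through 6 genes chosen by name: the ligands Lif and Il6, the receptor chains Lifr and Il6st, the transcription factor Stat3 and its target and inhibitor Socs3. Every probe set of the table whose annotated gene symbol, or an older alias of it, belonged to one of these genes was taken. This gave 12 of the 12488 probe sets, for 5 of the 6 genes: 5 for Lifr, 2 each for Il6st, Stat3 and Socs3, and 1 for Il6. No probe set matched Lif, which is not analysed here.

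All members of this family signal through gp130, the shared receptor chain that Il6st encodes. LIF binds LIFR, which pairs with gp130, while IL-6 reaches gp130 through its own alpha chain. Kinases of the JAK family held by the receptors then phosphorylate STAT3, which enters the nucleus and switches on genes such as Socs3, and the SOCS3 protein binds gp130 and shuts the signal down. In liver and at sites of injury the same route switches on acute phase genes. In the olfactory mucosa of mice, LIF has been described as a signal that makes neuronal progenitors divide after injury, such as removal of the olfactory bulb.

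Total RNA of mouse olfactory mucosa, the nasal tissue with the olfactory neurons, was hybridised to 8 single-colour arrays. All mice had lost both olfactory bulbs, the target of these neurons, so that no group without this operation enters the comparisons. The arrays make up 4 groups of 2: C57BL/6 wild-type mice injected with carrier, C57BL/6 wild-type mice injected with CCL3 (a chemokine, also called MIP-1a), mice labelled Ccl3-/- injected with carrier, and mice labelled Ccl3-/- injected with CCL3. The age and sex of the mice, the dose, the time after surgery, the kind of deletion and the strain background of the mice labelled Ccl3-/- are not stated in the labels. Nor do these say whether an array holds 1 animal or a pool, or whether replicates are separate animals, and every p-value below rests on array-to-array spread that may be technical.

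The Ccl3 signal ran against the genotype labels. The 4 arrays with the Ccl3-/- label ranged from 727.3 to 812.2, with a mean of 768.2 ± 46 (SD), and the 4 wild-type ones from 159.4 to 386.5, with a mean of 275.3 ± 103 (SD). If the probes lie outside the deleted part they check nothing, and the groups are called by their labels here. The tissue showed Omp, the marker of mature olfactory neurons, at 4251.1 to 21778.7 on the 8 arrays. Median intensities lay between 581.4 and 660.3. Replicate 1 of the wild-type carrier group was unlike the rest: its ratio of 3' to 5' Gapdh signal, a measure of RNA integrity and labelling, was 2.59 against 0.755 to 1.31, and its Omp was the lowest of the 8.

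Levels are array intensities in the deposited units, and the level of one probe set is not compared with that of another. Tests were limited to probe sets above 362.7, the 40th percentile of all intensities, on 2 or more arrays, which kept 8 of the 12. Differences are on the scale log2(intensity + 102.3), which understates those of dim genes, and come from limma with Benjamini-Hochberg adjustment over all 8150 probe sets tested. No probe set anywhere in the table passed an adjusted p of 0.05 in any of the 7 comparisons, so the share called was 0% in each. The unadjusted threshold of 0.05 therefore serves below only to count probe sets against the share of the whole table that crosses it.

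Socs3 and Lifr had their highest levels on the carrier-injected arrays labelled Ccl3-/-. By their brightest probe sets, Socs3 was 2.23-fold and Lifr 2.32-fold higher there than on the wild-type carrier arrays, and 2.20-fold and 1.91-fold higher than on the CCL3-injected arrays labelled Ccl3-/-. On the wild-type arrays, CCL3 and carrier gave overlapping levels of both. Il6st and Stat3 differed by at most 0.40 on the log2 scale between any of these pairs of groups, and Il6 was dim throughout. None of these differences passed the test over the whole table.

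**Figure D1:**
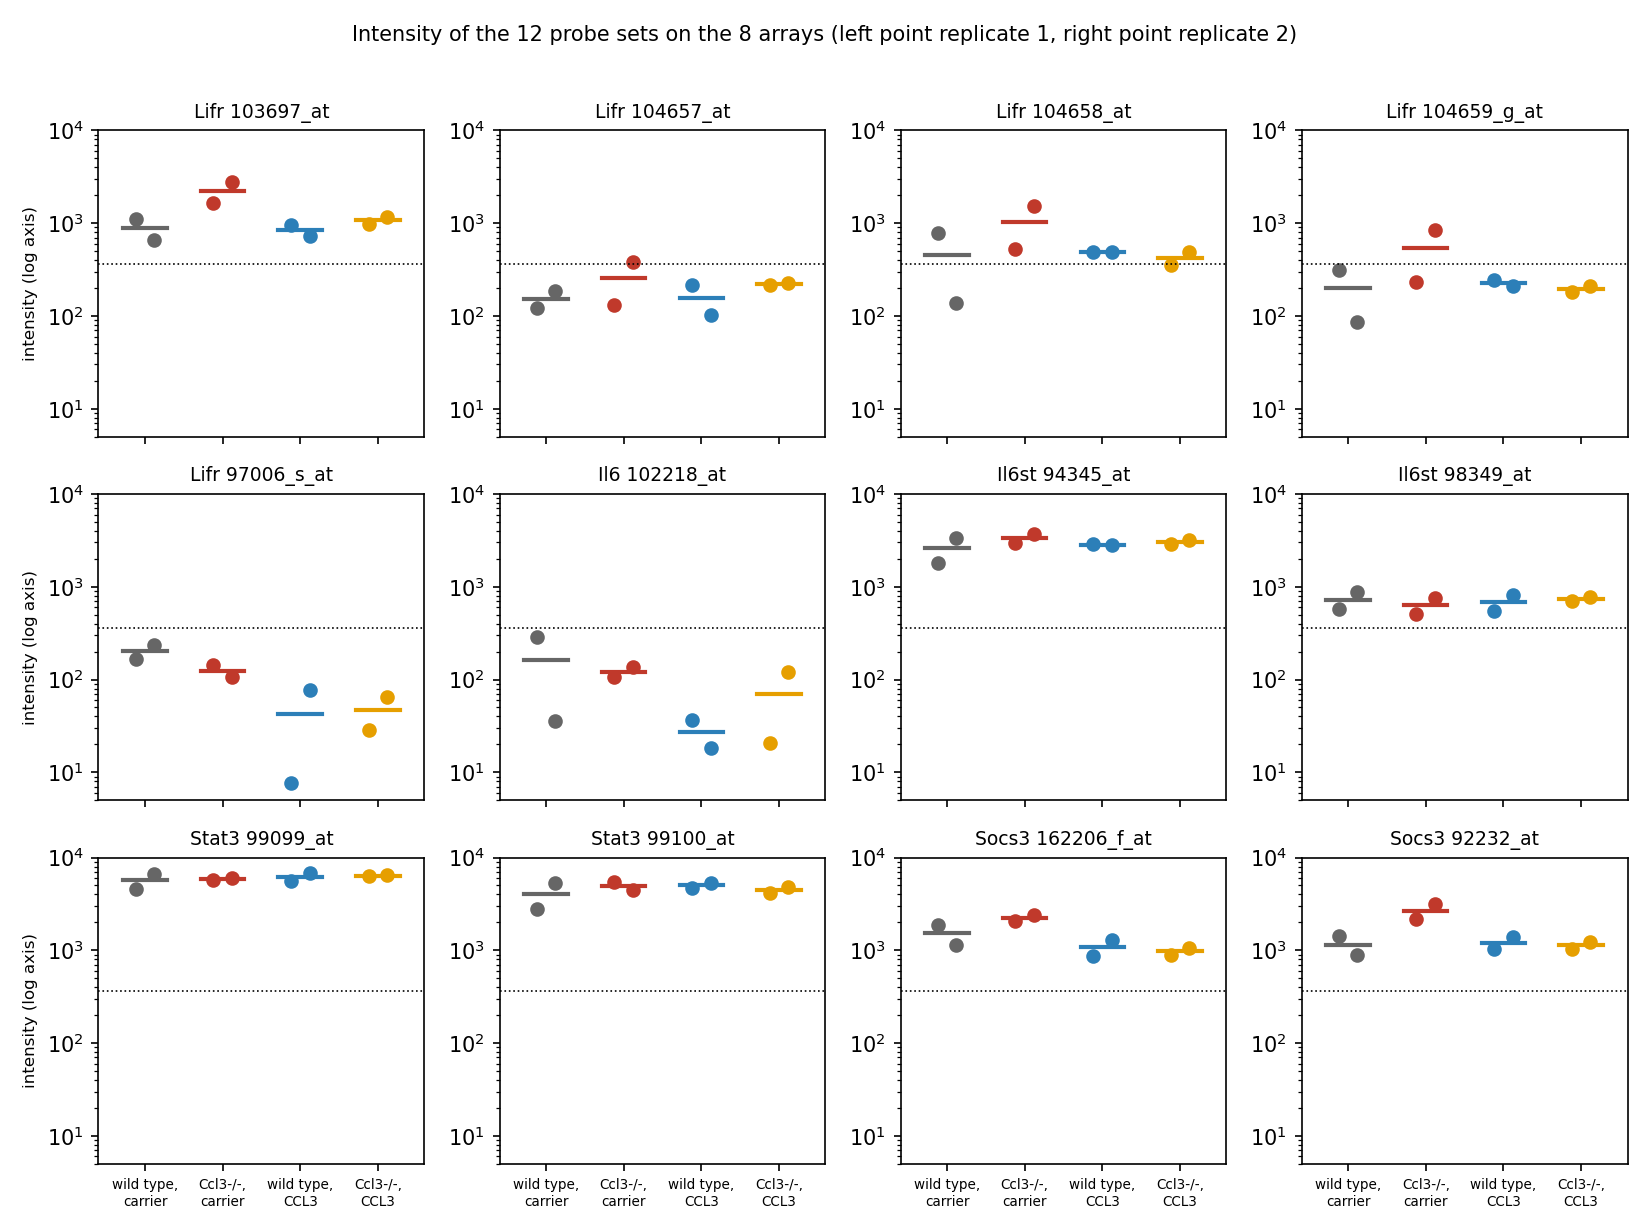
Each panel plots the intensity (log axis) of 1 of the 12 probe sets on the 8 arrays, with the left point replicate 1, the right point replicate 2, the bar the group mean, and the dotted line the filter value of 362.7. Lifr 103697_at and Socs3 92232_at are highest in both carrier-injected arrays labelled Ccl3-/-, whereas the Il6st and Stat3 panels are flatter and Il6 lies under the line on every array.

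Il6 encodes IL-6 itself, which leukocytes and stromal cells release in inflammation. Its probe set 102218_at read 286.4 and 36.1 on the wild-type carrier arrays, 106.6 and 137 on the carrier arrays labelled Ccl3-/-, 36.2 and 18.2 on the wild-type CCL3 arrays, and 20.8 and 120.6 on the CCL3 arrays labelled Ccl3-/-. All 8 values lay under the filter value, the replicates of the wild-type carrier group were nearly as far apart as the whole set, and no difference was tested. At this signal a change in Il6 was not detectable.

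Lifr encodes the LIF receptor chain. Its brightest probe set, 103697_at, read 1119.1 and 659.5 on the wild-type carrier arrays, 1640.9 and 2771.7 on the carrier arrays labelled Ccl3-/-, 946.3 and 724.8 on the wild-type CCL3 arrays, and 976.7 and 1169.3 on the CCL3 arrays labelled Ccl3-/-. Both carrier arrays labelled Ccl3-/- lay above all 6 others. In order, the group means were 2206.3 ± 799.6 (SD, n = 2) for carrier and 1073 ± 136.2 for CCL3 with the Ccl3-/- label, then 889.3 ± 325 for carrier and 835.55 ± 156.6 for CCL3 in wild type. The wild-type groups overlap each other, and the wild-type carrier arrays also overlap the CCL3 arrays labelled Ccl3-/-.

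After carrier, Lifr 103697_at was 1.21 ± 0.33 (log2 difference ± SE, n = 2 per group) higher with the Ccl3-/- label, or 2.32-fold, with an adjusted p of 0.363 in limma. The genotype difference after CCL3 was 0.33 ± 0.33. With the label, CCL3 minus carrier was -0.93 ± 0.33, or 1.91-fold lower, with an adjusted p of 0.94. It rested partly on 1 array: without the second carrier array labelled Ccl3-/-, the brightest of the 8, it was -0.57. In wild type the same contrast gave -0.05 ± 0.33 (adjusted p = 0.981 in limma). The test of the difference between the genotypes in their response to CCL3 (the interaction, the response with the Ccl3-/- label minus that in wild type) gave -0.88 ± 0.47, with an adjusted p of 0.908, and ranged from -1.24 to -0.52 as single arrays were left out.

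The second tested Lifr probe set, 104658_at, read 776.4 and 137 in wild type after carrier, 531.2 and 1549.9 with the Ccl3-/- label after carrier, 487.4 and 487.9 in wild type after CCL3, and 351.5 and 489.7 with the label after CCL3. Its differences pointed the same way as those of the first, at 1.16 ± 0.59 for genotype after carrier and -0.98 ± 0.59 for CCL3 on the arrays labelled Ccl3-/-. Here the replicates within each carrier group were up to several-fold apart and the carrier groups overlapped. Without wild-type carrier replicate 2, its lowest array, the genotype difference after carrier was 0.22, and without the second carrier array labelled Ccl3-/-, its highest, the CCL3 difference was -0.29. The remaining 3 Lifr probe sets did not pass the filter. Of these, 104659_g_at and 104657_at exceeded the filter value on 1 array alone, carrier replicate 2 labelled Ccl3-/-, at 840.9 and 386.2. On carrier replicate 1 with that label they read 230.2 and 130.7, within the range of the wild-type arrays. The last, 97006_s_at, ranged from 7.6 to 235.3 and was highest on the wild-type carrier arrays.

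Il6st encodes gp130, the chain on which the whole family depends. Its brighter probe set, 94345_at, read 1813.7 and 3361.5 on the wild-type carrier arrays, 2952 and 3690.7 on the carrier arrays labelled Ccl3-/-, 2902.7 and 2787.4 on the wild-type CCL3 arrays, and 2879.8 and 3171.5 on the CCL3 arrays labelled Ccl3-/-. Only wild-type carrier replicate 1 lay well below the rest. The second probe set, 98349_at, ranged from 509.1 to 882.3, and its groups overlapped in all 4 comparisons. Over both probe sets and the 4 comparisons of 2 groups, the differences ran from -0.16 to 0.40, the lowest adjusted p was 0.597 in limma, and the 95% confidence intervals reached from -0.87 to 1.09, that is from 0.546-fold to 2.12-fold. A difference in gp130 RNA of up to about 2-fold is therefore not excluded by these arrays.

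Stat3 encodes the transcription factor that the receptors activate. Its probe set 99099_at read 4635.2 and 6681.6 on the wild-type carrier arrays, 5769.2 and 6056 on the carrier arrays labelled Ccl3-/-, 5554.6 and 6894.5 on the wild-type CCL3 arrays, and 6305.3 and 6453.7 on the CCL3 arrays labelled Ccl3-/-. The 4 groups overlapped except that both CCL3 arrays labelled Ccl3-/- lay above both carrier arrays with that label, by 0.11 ± 0.26. The other probe set, 99100_at, lay between 4096.8 and 5430.9 on 7 arrays and at 2756.4 on wild-type carrier replicate 1. Differences of both ran from -0.16 to 0.38, with a lowest adjusted p of 0.647 in limma and intervals from -0.87 to 1.09. The arrays measure Stat3 RNA and not the phosphorylated protein.

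Socs3 is the feedback inhibitor of gp130 signalling and a direct target of STAT3. STAT factors bind palindromes of the form TTCNNNGAA, and the promoter windows of the members, 250 bases before to 50 after the annotated start in the RefSeq table of build GRCm38.p6, were searched for these letters on both strands (the pattern reads the same on each). Of the 7 windows of the 6 genes, which include Lif and 2 starts of Lifr, 1 held a match, that of Socs3. It is printed whole because Socs3 is the member with the clearest pattern, at chr11:117969317-117969616 on the minus strand, with the match, 154 to 146 bases before the start, in capitals.
Socs3: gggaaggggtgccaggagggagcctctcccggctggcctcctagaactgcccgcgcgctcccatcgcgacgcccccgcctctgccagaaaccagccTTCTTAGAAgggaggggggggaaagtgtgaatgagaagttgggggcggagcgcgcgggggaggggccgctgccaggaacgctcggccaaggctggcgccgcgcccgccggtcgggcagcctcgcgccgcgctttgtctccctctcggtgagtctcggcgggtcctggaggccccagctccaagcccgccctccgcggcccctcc

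Among all 32851 promoter windows of that table, 2726 (8.3%) held the motif. Among the windows of the other pathway and target genes listed for this work, 14 of 94 (14.9%) did, in 12 of 73 genes. For comparison with Socs3, the stretches around the match are shown for 3 of these, each with the match in capitals: Cish, a relative of Socs3 with a pair of neighbouring matches, Irf1, a transcription factor of interferon responses, and Icam1, an adhesion protein for leukocytes. The Cish matches lie after the start, at bases 1 to 9 and 12 to 20, and not before it as in Socs3. A match is a description of letters and not a measured binding site.
Cish, first match: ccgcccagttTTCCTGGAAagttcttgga
Cish, second match: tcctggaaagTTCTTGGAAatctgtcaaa
Irf1: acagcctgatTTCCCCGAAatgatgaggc
Icam1: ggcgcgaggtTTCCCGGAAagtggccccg

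The brighter Socs3 probe set, 92232_at, read 1417.2 and 880 on the wild-type carrier arrays, 2194.4 and 3121.4 on the carrier arrays labelled Ccl3-/-, 1044.7 and 1379.1 on the wild-type CCL3 arrays, and 1036.1 and 1237.8 on the CCL3 arrays labelled Ccl3-/-. Both carrier arrays labelled Ccl3-/- lay above all 6 others, and the 3 other groups overlapped. Their means were 2657.9 ± 655.5 (SD, n = 2) against 1211.9 ± 236.5 for wild type after CCL3, 1148.6 ± 379.9 for wild type after carrier and 1136.9 ± 142.6 for the Ccl3-/- label after CCL3.

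After carrier, Socs3 92232_at was 1.16 ± 0.30 (SE, n = 2 per group) higher with the Ccl3-/- label, or 2.23-fold, and after CCL3 the same contrast gave -0.08 ± 0.30. The adjusted p was 0.363 and 1 in limma. With the Ccl3-/- label, CCL3 minus carrier gave -1.14 ± 0.30, or 2.20-fold lower, with an adjusted p of 0.748, and in wild type it gave 0.09 ± 0.30, with an adjusted p of 0.965. The interaction was -1.23 ± 0.43, with an adjusted p of 0.908. Leaving out any of the 8 arrays or changing the processing kept the genotype difference after carrier between 0.84 and 1.47 and the CCL3 difference on the arrays labelled Ccl3-/- between -1.38 and -0.89.

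The second Socs3 probe set, 162206_f_at, whose suffix marks probes that can match more than a single sequence, read 1894.1 and 1154 on the wild-type carrier arrays, 2087.8 and 2392.7 on the carrier arrays labelled Ccl3-/-, 872.2 and 1287.8 on the wild-type CCL3 arrays, and 897.5 and 1057.4 on the CCL3 arrays labelled Ccl3-/-. Again the carrier arrays labelled Ccl3-/- were the highest, here with wild-type carrier replicate 1 just below them. CCL3 against carrier gave -1.12 ± 0.30 with the Ccl3-/- label, or 2.17-fold lower, and -0.44 ± 0.30 in wild type. The difference between these responses was -0.67 ± 0.43, and genotype after carrier gave 0.56 ± 0.30. The adjusted p of these 4 differences was 0.748, 0.911, 0.908 and 0.489 in limma. The last 3 moved with single wild-type carrier arrays: without replicate 1 the difference in wild type was -0.11, and without replicate 2 the interaction was -0.34 and genotype after carrier 0.23.

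**Figure D2:**
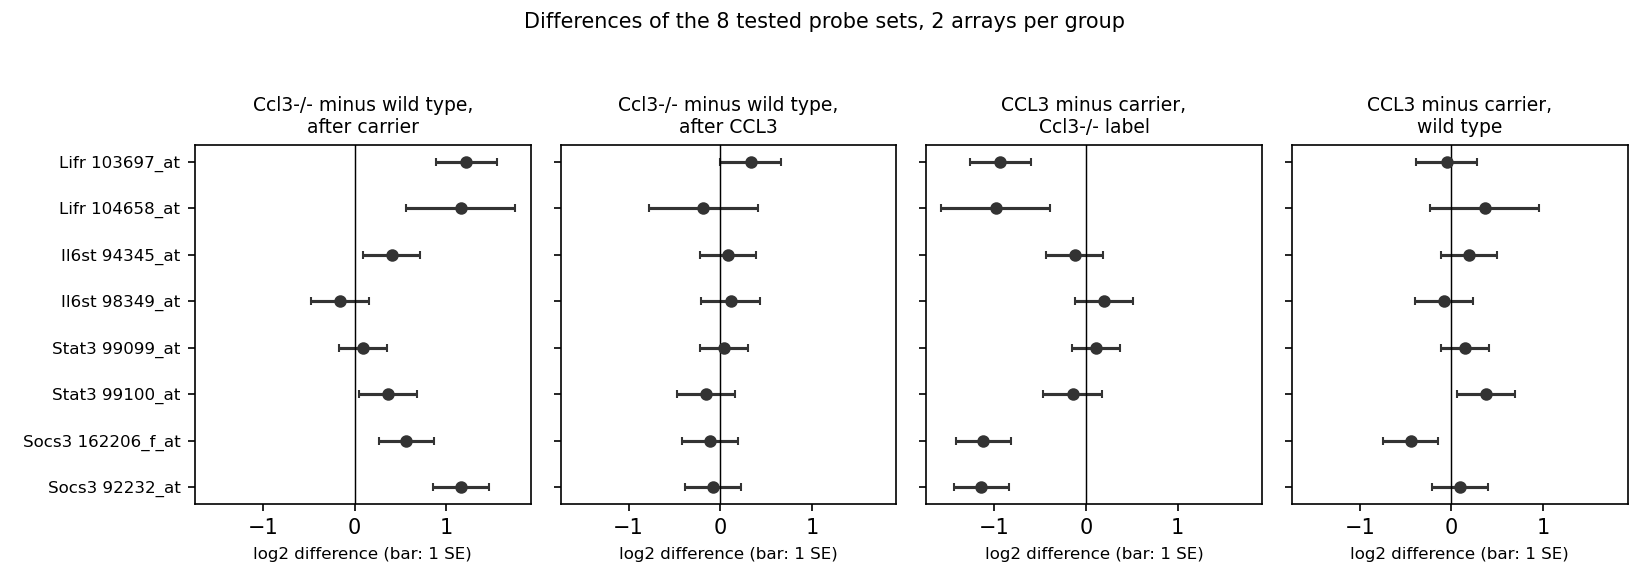
The log2 differences of the 8 tested probe sets are plotted for the 4 comparisons of 2 groups, with points for the fitted difference and bars of 1 SE (2 arrays per group). Lifr and Socs3 stand to the right of 0 for genotype after carrier and to the left for CCL3 on the arrays labelled Ccl3-/-, while Il6st and Stat3 lie near 0 in all 4 panels.

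For genotype after carrier, 2 of the 8 tested member probe sets (Lifr 103697_at and Socs3 92232_at) were higher at an unadjusted p under 0.05 and 0 lower, where 11.4% of all probe sets crossed that threshold in either direction. The 2 carrier groups did not overlap for 3 members, all higher with the label, and for 38.5% of the whole table. The median member difference was 0.48, against -0.03 over all probe sets. For genotype after CCL3, 0 of 8 members crossed the unadjusted threshold and 1.48% of the table did, the groups were separate for 1 member (Lifr 103697_at) and for 29.4% of the table, and the median member difference was -0.02.

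For CCL3 minus carrier with the Ccl3-/- label, 3 of 8 members were lower at the unadjusted threshold (both Socs3 probe sets and Lifr 103697_at) and 0 higher, against 4.90% of the table. The groups were separate for 5 members, 4 lower and 1 higher, and for 38.9% of the table. The median member difference was -0.54, against 0.03 over all probe sets. For CCL3 in wild type, 0 of 8 members crossed the unadjusted threshold and 4.29% of the table did, and no member separated the groups, where 30.1% of the table did. For the interaction, 1 member (Socs3 92232_at) crossed it, against 5.06% of the table. The average over injections put 2 members higher with the Ccl3-/- label, against 5.93%, and the average over genotypes put 2 lower after CCL3, against 4.53%. These comparisons share arrays: the carrier arrays labelled Ccl3-/- stand in the first and the third, so that their high Socs3 and Lifr values enter both.

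The counts moved with single arrays. Without wild-type carrier replicate 1, the array that stood apart, 4 of 8 members were higher for genotype after carrier and 4 lower for the interaction, against 12.5% and 8.55% of the table at the unadjusted threshold. Without wild-type carrier replicate 2, 4 were higher for genotype after carrier, against 20.2%. Without carrier replicate 2 labelled Ccl3-/-, 2 were higher for genotype after carrier and 2 lower for CCL3 with that label, and 0 crossed the threshold for the interaction, against 7.97%, 6.14% and 5.39%. Without CCL3 replicate 1 labelled Ccl3-/-, 2 were lower for CCL3 with that label and 0 crossed the threshold for the interaction, against 1.61% and 1.79%, and without wild-type CCL3 replicate 2 the interaction again had 0, against 5.06%.

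The other parts of the pathway were followed through listed genes, each by its brightest tested probe set. Of 8 other ligands of the family, 2 were on the array. Ctf1, which encodes cardiotrophin 1, read 2767.9 and 2322.3 on the wild-type carrier arrays and 1379.8 and 1776.2 on the carrier arrays labelled Ccl3-/-, a difference of -0.66 ± 0.25 (SE) with an adjusted p of 0.404 in limma. Its CCL3-injected arrays lay between 1794.1 and 1990.7. Il11, the other ligand, was at most 69.1 on every array and was not tested.

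Of the receptor chains, 3 of 5 were tested, and 0 passed the adjusted threshold. Osmr, the chain that pairs with gp130 to receive oncostatin M, read 2777.6 and 1203.6 on the wild-type carrier arrays, 2533.1 and 2680.4 on the carrier arrays labelled Ccl3-/-, 1243.4 and 1469.1 on the wild-type CCL3 arrays, and 989.1 and 945.5 on the CCL3 arrays labelled Ccl3-/-. Wild-type carrier replicate 1 was here as high as the carrier arrays labelled Ccl3-/-. CCL3 against carrier gave -1.34 ± 0.35 with the label and -0.42 ± 0.35 in wild type, with adjusted p of 0.722 and 0.911, and the interaction was -0.93 ± 0.49. Without wild-type carrier replicate 1 the wild-type difference was 0.16, and without replicate 2 it was -0.99 and the interaction -0.35.

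Il6ra, the IL-6 binding chain, had the opposite order. It read 70.5 and 73.1 on the carrier arrays labelled Ccl3-/-, the lowest of all, against 586.8 and 235.4 in wild type after carrier, 244.9 and 531.3 in wild type after CCL3, and 268.1 and 614.1 with the label after CCL3. Only 3 of these 8 values exceed the filter value. The differences were -1.47 ± 0.50 for genotype after carrier, with an adjusted p of 0.394, and 1.56 ± 0.50 for CCL3 with the Ccl3-/- label, with an adjusted p of 0.83. For Il27ra, a chain of the receptor for interleukin 27, which also uses gp130, the same contrasts gave -0.49 ± 0.28 and 0.52 ± 0.28.

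Between receptor and nucleus, 0 of 8 tested JAK kinases and adaptors crossed the unadjusted threshold in any of the 7 comparisons, with medians from -0.12 to 0.00. Of the other STAT factors, Stat6, which answers interleukin 4, read 651 and 1400 on the wild-type carrier arrays and 1638.7 to 2248.3 on the 6 others. It was 0.90 ± 0.34 higher with the Ccl3-/- label after carrier and 0.81 ± 0.34 higher after CCL3 in wild type, with adjusted p of 0.408 and 0.911 in limma. Without wild-type carrier replicate 1 these were 0.40 and 0.31. Of 11 other inhibitors of cytokine signalling, 0 crossed the unadjusted threshold in any comparison. Cish, whose promoter matches are printed above, was at -0.13 ± 0.32 for genotype after carrier and 0.38 ± 0.32 for CCL3 on the arrays labelled Ccl3-/-, and Socs1 was at -0.70 ± 0.41 and Socs2 at -0.71 ± 0.36 for genotype after carrier. None of these 3 had the direction of Socs3 there.

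Immediate and growth targets of STAT3 had mixed directions. For CCL3 on the arrays labelled Ccl3-/-, 8 of 25 tested genes had positive differences and 17 negative ones, with a median of -0.26 against 0.03 over all probe sets, and 3 were lower at the unadjusted threshold and 0 higher, against 4.90% of the table. Cebpd, a transcription factor that switches on acute phase genes, was the largest of them. It read 12803 and 3015.8 on the wild-type carrier arrays, 11143.7 and 19905.2 on the carrier arrays labelled Ccl3-/-, and 3361.3 to 4826.7 on the 4 CCL3-injected arrays. Its difference was -1.86 ± 0.56 with the label, 3.63-fold, with an adjusted p of 0.83, and -0.60 ± 0.56 in wild type. Icam1 followed Socs3 in direction, at 0.99 ± 0.39 for genotype after carrier and -0.88 ± 0.39 for CCL3 with the label (adjusted p = 0.412 and 0.94 in limma), the second of which was -0.37 without CCL3 replicate 1 labelled Ccl3-/-, and Irf1 lay between 1256 and 1934.3 on all arrays. Of the immediate early genes, Fos was at -0.22 ± 0.33, Junb at -1.12 ± 0.34 and Egr1 at 0.61 ± 0.28 for genotype after carrier. For CCL3 with the Ccl3-/- label the same genes were at -1.05 ± 0.33, 0.22 ± 0.34 and -0.36 ± 0.28. Fos was at -0.58 there without carrier replicate 2 labelled Ccl3-/-, and Junb at -0.72 for genotype after carrier without wild-type carrier replicate 1.

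Acute phase genes, the classic outputs of IL-6 and LIF in liver, were lower on the CCL3-injected than on the carrier-injected arrays labelled Ccl3-/- for 10 of the 11 tested, with a median difference of -0.91 against 0.03 over all probe sets. At the unadjusted threshold 6 of 11 were lower and 0 higher, where 4.90% of the table crossed it, and 0 passed the adjusted threshold. These differences leaned partly on single arrays. The median was -0.71 without carrier replicate 2 labelled Ccl3-/- and -1.25 without carrier replicate 1 with that label. Lcn2 was at -0.73, and at -0.21 without that replicate 2. In wild type 8 of 11 were lower, with a median of -0.29 against -0.02 over all probe sets, and 2 (Hpx and Saa2) were lower at the unadjusted threshold and 0 higher, against 4.29% of the table. Hpx exceeded the filter value only on wild-type carrier arrays and Saa2 only on carrier arrays. That both were lower after CCL3 in wild type thus follows from the filter, and this wild-type count is not a result. With the Ccl3-/- label, Saa2 among the 10 lower and A2m among the 6 likewise exceeded it only on carrier arrays. A2m read 368.9 and 457 there, against 175 and 20.1 after CCL3, and otherwise exceeded it only on 1 wild-type CCL3 array, at 373. Their part of the counts with the label is not a result. The list was chosen with earlier results of these data known. The list held 23 genes, of which 21 were on the array, and 10 of these did not pass the filter, among them Fga, Fgb and Fgg for the chains of fibrinogen. A gene that passed the filter only through its high group had to differ, and the counts cover the 11 alone.

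Saa3, an amyloid protein of inflamed tissue, had the largest difference. It read 3563 and 341.8 on the wild-type carrier arrays, 3241.5 and 4742.8 on the carrier arrays labelled Ccl3-/-, 31.9 and 638.5 on the wild-type CCL3 arrays, and 74.8 and 333.5 on the CCL3 arrays labelled Ccl3-/-. With the Ccl3-/- label CCL3 against carrier gave -3.86 ± 0.97 (SE), or 14.5-fold lower on the offset scale, with an adjusted p of 0.722 in limma. Wild-type carrier replicate 1 was as high as the arrays labelled Ccl3-/- and its replicate was not, so that genotype after carrier gave 1.66 ± 0.97.

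Cp encodes the copper carrier ceruloplasmin. It read 3110.6 and 791.3 on the wild-type carrier arrays, 4695.4 and 5059.9 on the carrier arrays labelled Ccl3-/-, 1077.2 and 1798.5 on the wild-type CCL3 arrays, and 914 and 1284.3 on the CCL3 arrays labelled Ccl3-/-. The differences were 1.55 ± 0.51 for genotype after carrier, -2.07 ± 0.51 for CCL3 with the label and -1.89 ± 0.72 for the interaction, with adjusted p of 0.375, 0.722 and 0.908. Without wild-type carrier replicate 2 the first was 0.63 and the last -0.97, and without replicate 1 they were 2.48 and -2.81. Orm1, an acid glycoprotein of plasma, had 1057.8 and 830.3 on the carrier arrays labelled Ccl3-/- and 87.9 to 373.8 on the 6 others, with differences of 1.55 ± 0.49 and -1.67 ± 0.49 for the same first 2 contrasts. Hpx, which encodes the haem carrier hemopexin, read 374.6 and 884.8 on the wild-type carrier arrays and 136.9 to 255.6 on the 6 others. It passed the filter only through the wild-type carrier arrays, so that its difference from that group was fixed by the filter and is not given as a result.

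**Figure D3:**
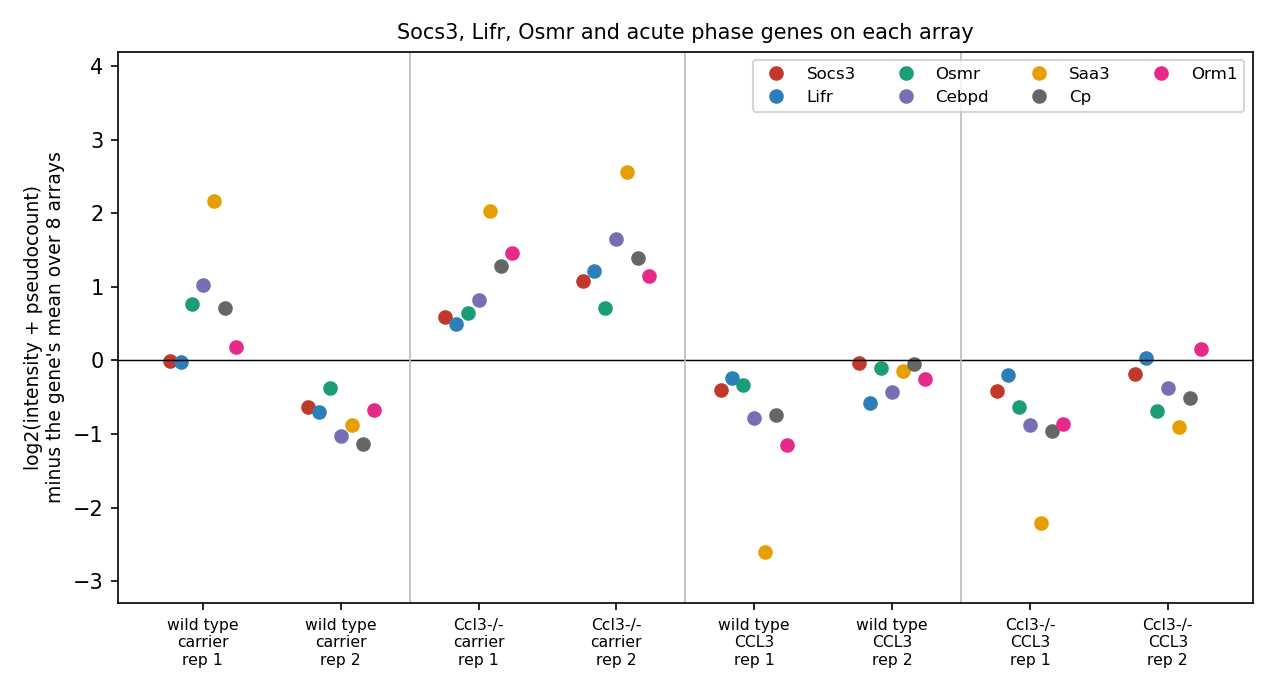
For Socs3, Lifr, Osmr, Cebpd, Saa3, Cp and Orm1, each point is log2(intensity + pseudocount) on an array minus the gene's mean over the 8 arrays, by the brightest probe set. All 7 genes lie above their means on both carrier arrays labelled Ccl3-/-, while wild-type carrier replicate 1 is high for Saa3, Cebpd, Osmr and Cp and close to the mean for Socs3 and Lifr. Osmr, Cebpd, Saa3, Cp and Orm1 were picked from the lists by their values, so that their shared direction is not a result. Other listed genes were lower on these arrays than on the wild-type carrier arrays, among them Il6ra (-1.47), Junb (-1.12) and Ctf1 (-0.66).

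**Figure D4:**
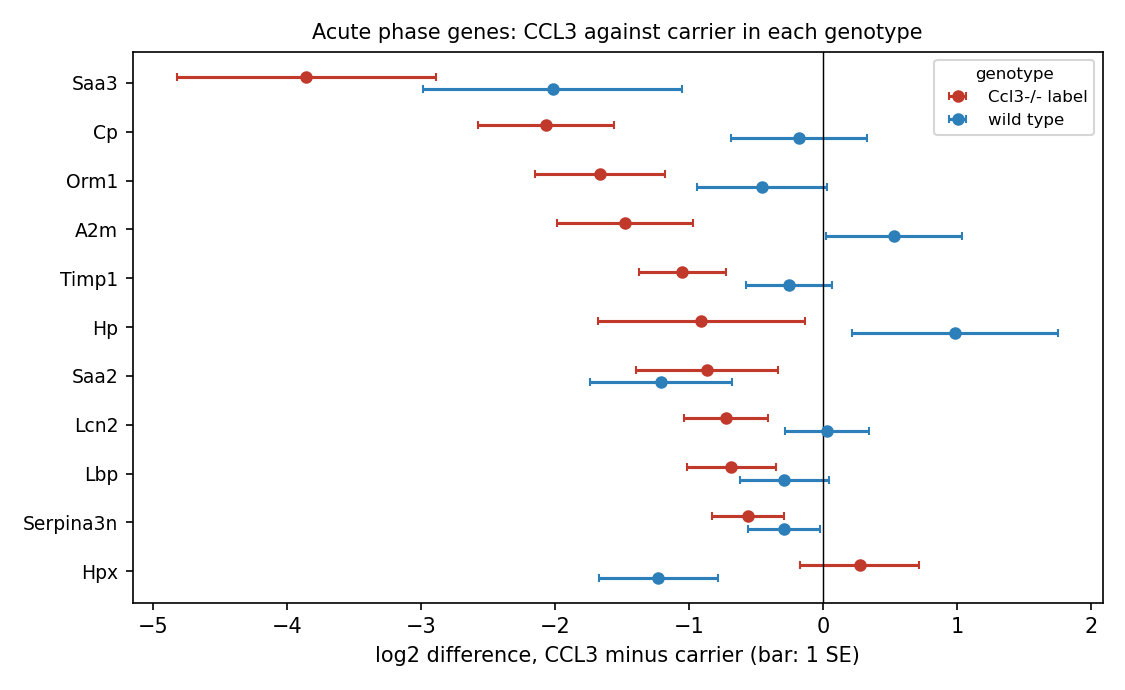
The log2 difference of CCL3 against carrier is plotted for the 11 tested acute phase genes, in red for the Ccl3-/- label and in blue for wild type, with bars of 1 SE (2 arrays per group). With the label 10 of 11 points lie below 0, from Saa3 at -3.86 upwards, and only Hpx lies above. Saa2 and A2m with the label, and Saa2 and Hpx in wild type, exceeded the filter value only on carrier arrays. Their direction there is not a result.

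Markers of cells also varied over the arrays, and not only on the carrier arrays labelled Ccl3-/-. In such bulk tissue fewer cells of a type and less RNA per cell cannot be told apart. Summed intensities of the 13 neutrophil markers, all on the array and 11 of them tested, were 125340 and 178310 on the carrier arrays labelled Ccl3-/- and 90819 to 115560 on the 6 others. Most of this sum came from Ltf, which encodes lactoferrin (53549.6 and 82472.4 on the carrier arrays labelled Ccl3-/-), and Lcn2 (37267.4 and 76855.4), which is also on the acute phase list. Camp, Mpo, Elane and Prtn3 were instead highest on CCL3 replicate 1 with that label. Camp read 17005.3 there, against 2400.4 and 3698.3 on the carrier arrays with the label. Ngp, S100a8 and S100a9 were highest on carrier replicate 1 with the label. Of the 11 tested, 3 were higher at the unadjusted threshold for genotype after carrier, against 11.4% of the table, and 4 for genotype after CCL3, against 1.48%, with 0 lower in both. Ngp, in both counts, and Mpo, in the second, exceeded the filter value only on arrays labelled Ccl3-/-. Their higher level with that label thus follows from the filter, and their part of these counts is not a result. Csf3r, Elane and Prtn3 were at -0.35 ± 0.30, -0.08 ± 0.33 and -0.09 ± 0.51 for genotype after carrier. The neutrophil granule gene Ngp read 608.7 to 1976.5 on all 4 arrays labelled Ccl3-/- and 71.5 to 166.4 on the wild-type arrays. Macrophage markers, 11 of 12 on the array and 7 tested, summed to 23845 and 26956 on the carrier arrays labelled Ccl3-/- and 18992 to 26690 on the others, and 0 of the 7 crossed the unadjusted threshold in any comparison. The part of any cell type in the Socs3 and Lifr differences was not tested.

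Olfactory neuron and precursor markers, 9 of 13 on the array, summed to 57209 and 26918 on the carrier arrays labelled Ccl3-/-, the second of which had the highest Socs3 and Lifr values and the lowest sum of the 8, against 38560 to 59318 on the others. Neurod1, a transcription factor of neuronal precursors, was lowest on the carrier arrays labelled Ccl3-/-, at 146.9 and 187.9 against 394.3 to 959.9 on the others. The difference was -1.59 ± 0.35 for genotype after carrier and 0.98 ± 0.35 for CCL3 with the label, with adjusted p of 0.363 and 0.94 in limma. The list did not share one direction: for genotype after carrier 3 of the 9 tested genes were higher and 6 lower, with 1 higher and 3 lower at the unadjusted threshold, against 11.4% of the table. Neurog1, in the 3 lower, exceeded the filter value only on wild-type arrays. Its lower level with the Ccl3-/- label thus follows from the filter, and its part of this count is not a result. In the same contrast Omp, of mature neurons, was at 0.88 ± 0.52 and Cnga2, a channel subunit of olfactory transduction, at 0.81 ± 0.35. Sustentacular and basal cell markers, 9 of 12 on the array, summed to 67743 to 79980 over all 8 arrays, and endothelial and stromal markers, all 12 on the array, to 32964 to 49896, with the carrier arrays labelled Ccl3-/- inside both ranges. For genotype after carrier, 5 of 6 tested sustentacular and basal cell genes were higher. At the unadjusted threshold 2 of them (Krt17 and Icam1) were higher and 0 lower, against 11.4% of the table. Krt17 was at 1.51 ± 0.44 (adjusted p = 0.375 in limma), and at 0.76 without carrier replicate 2 labelled Ccl3-/-. Of 10 tested endothelial and stromal genes, 3 were higher and 7 lower. Only Col1a1 crossed that threshold, at -1.12 ± 0.44 (adjusted p = 0.412 in limma). No listed gene was at 0, and the lowest intensity of any was 4.7.

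Among the members, the brightest probe sets of Socs3 and Lifr followed each other over the 8 arrays (Pearson r = 0.911 on the log2 scale). Between probe sets of the same gene, r was 0.875 for the pair of Socs3, 0.834 for the tested pair of Lifr, 0.798 for that of Stat3 and 0.488 for that of Il6st. Socs3 92232_at and Stat3 99099_at gave -0.17. Over the 8150 probe sets, those most like Socs3 92232_at belonged to Eif2s2 (r = 0.975), a subunit of a translation initiation factor, Ubxn1 (0.97) and Anxa1 (0.965), which encodes annexin A1. Those most like Lifr 103697_at were 2 probe sets of Anxa1 (0.97 and 0.969) and S100a10 (0.967), whose protein binds an annexin. Il6st 94345_at was matched best by Pik3ca (0.974), Ndufb10 (0.974) and Hltf (0.97), and Stat3 99099_at by Ica1 (0.975), Ankzf1 (0.969) and Cdk8 (0.968). These correlations describe 8 arrays that share 4 groups, and the highest r of 8150 probe sets was picked for each gene.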

How the data were processed

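The authors deposited linear intensities, 1 value for each array and probe set; their software and scaling are not stated in the labels. Means after trimming 2% at each end were 1500.7 to 1500.8 per array, so the arrays had been scaled to each other and no further normalization was applied. The platform annotation gave 1 symbol to 10855 of 12488 probe sets, several to 396 and none to 1237; 16 gene IDs were absent from the gene table of GRCm38.p6.

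Values were taken as log2(intensity + 102.3), the 20th percentile. Probe sets above 362.7 on at least 2 arrays were tested, without control probe sets, which left 8150 for 6181 genes. limma 3.58.1 in R 4.3.3 fitted the 4 groups together (4 residual degrees of freedom, intensity trend, Benjamini-Hochberg adjustment) for 7 comparisons: the genotypes after carrier and after CCL3, CCL3 against carrier within each genotype, the interaction, and the average over each factor. The fit was tested on simulated data. The number of arrays limits the precision. Members and gene lists were chosen with earlier results of these data known.

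Named genes are all member probe sets, up to 3 genes per list with the smallest p in a comparison if under 0.05 unadjusted, the 3 probe sets most correlated with each member's brightest one, and Ccl3. Values of Il11, Il27ra, Cish, Socs1, Socs2, Irf1, Omp, Cnga2, Ltf, Csf3r, Elane, Prtn3 and the fibrinogen genes, and of Osmr, Cebpd, Saa2, Saa3, A2m, Fos, Junb, Egr1 and Lcn2 in comparisons outside that rule, were chosen after they were seen. Alternatives were quantile, median and cyclic loess scaling, a smaller and a larger pseudocount, a floor, stricter and absent filters, no trend, a replicate block, only the groups compared, and each array left out in turn. Sequences are from RefSeq tables of GRCm38.p6, with entries for all 6 genes. Figures were drawn with matplotlib 3.10.9.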

Additional observations from a re-analysis of the deposited data

How the results depend on the processing

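No count past the adjusted threshold was above 0 as reported. With the replicate block it was 1 for genotype after carrier, for the genotype average and for the CCL3 average; with only the groups compared it was 1 for genotype after CCL3. Leaving out an array, which leaves a group with 1 array assumed to vary like the others, gave 0 to 113 for genotype after carrier, 0 to 1 for genotype after CCL3 and for CCL3 on the arrays labelled Ccl3-/-, 0 to 74 for CCL3 in wild type, 0 to 6 for the genotype average, 0 to 20 for the CCL3 average and 0 for the interaction. The highest counts of 113, 74, 6 and 20 came without wild-type carrier replicate 2. No member was called in any of these settings (lowest adjusted p 0.0921 in limma). Osmr (-1.16, adjusted p 0.0464), Cebpd (-1.74, 0.047) and Cp (-1.58, 0.0464) were called for the CCL3 average without that array, and Ngp for the genotype average (2.61, 0.0135) with the block. Ngp exceeded the filter value only on arrays labelled Ccl3-/-, so that the direction of its genotype difference was fixed by the filter. Whether the replicate numbers pair the arrays is not stated in the labels. The deviations of equal numbers correlated at -0.158 to 0.178 over 6 pairs of groups, which cannot exclude pairing because each deviation rests on 2 arrays.

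Of 884 recomputed member differences, 31 had another sign, 29 of them when an array was left out. With one median for each array Lifr 103697_at for CCL3 in wild type was 0.011, and with quantile normalization the interaction of Stat3 99099_at was 0.030. Leaving out an array gave these ranges. For genotype after carrier they were -0.025 to 0.83 for Il6st 94345_at, -0.43 to 0.11 for Il6st 98349_at, -0.17 to 0.34 for Stat3 99099_at, -0.094 to 0.82 for Stat3 99100_at and -0.089 to 1.05 for Osmr. For genotype after CCL3 they were -0.38 to 0.0050 for Lifr 104658_at, -0.13 to 0.35 for Il6st 98349_at, -0.11 to 0.20 for Stat3 99099_at, -0.37 to 0.14 for Socs3 162206_f_at and -0.26 to 0.11 for Socs3 92232_at. For CCL3 on the arrays labelled Ccl3-/- they were -0.28 to 0.033 for Il6st 94345_at and -0.056 to 0.45 for Il6st 98349_at. For CCL3 in wild type they were -0.39 to 0.29 for Lifr 103697_at, -0.57 to 1.30 for Lifr 104658_at, -0.23 to 0.62 for Il6st 94345_at, -0.35 to 0.19 for Il6st 98349_at, -0.11 to 0.41 for Stat3 99099_at, -0.080 to 0.83 for Stat3 99100_at, -0.22 to 0.41 for Socs3 92232_at and -0.99 to 0.16 for Osmr. For the interaction they were -0.74 to 0.11 for Il6st 94345_at and -0.30 to 0.22 for Stat3 99099_at, and for the CCL3 average -0.78 to 0.16 for Lifr 104658_at. The cause of these changes was not tested beyond the array left out. Il6 and 3 Lifr probe sets did not exceed 362.7 on at least 2 arrays, and their signals support no comparison.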
